A study of Gallus gallus with 9 samples.

Results

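The genes described here are 10 enzymes of glutathione and antioxidant metabolism: GCLC, GCLM, GPX1, GPX3, GPX4, GSTA3, SOD1, SOD2, CAT and HMOX1. They were taken as the probe sets of a chicken expression array that carry 1 of these symbols alone in the platform annotation, which gave 16 of the 38535 probe sets, and they are 10 of the 13008 genes named in that way. A further probe set, which names GSTA3 together with another gene, was left out. The cells were preadipocytes, the precursors of fat cells, taken from the abdominal fat of laying hens and grown to confluence. They were given an adipogenic cocktail named DMIOA together with 10 uM retinoic acid, or DMIOA alone, or were left untreated as control, with 3 biological replicates numbered 1 to 3 in each group. The labels do not spell out DMIOA, and they give no hen, age, strain or time for a replicate. The titles of the DMIOA and control samples end in "(2)" and those with retinoic acid do not, so whatever this marks cannot be told apart from retinoic acid. P-values measure only the spread between these samples, which may be technical.

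Glutathione is a small thiol that keeps cells reduced. GCLC is the catalytic and GCLM the regulatory subunit of glutamate-cysteine ligase, the rate-limiting enzyme of its synthesis. Glutathione peroxidases spend glutathione on peroxides, and the best known of them carry selenocysteine in the active site. Superoxide dismutases turn superoxide into hydrogen peroxide, catalase breaks that down, and haem oxygenase, encoded by HMOX1, degrades haem. In mammals many of these genes are switched on by the transcription factor NRF2 (gene NFE2L2) and held down by BACH1.

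All levels are log2 values as the authors made them with GCRMA, and a log2 value below 5 is treated as not clearly above background. Of the 16 probe sets 13 reached 5 on at least 3 arrays, and these cover all 10 genes. The other 3 stayed below 5 on all 9 arrays: a probe set of GCLC at 1.49 to 2.06, one of SOD1 at 1.76 to 2.33 and one of CAT at 2.94 to 3.98. They give no level for those genes. Probe sets whose name ends in _s_at can bind related transcripts, which applies to those of GSTA3, the brighter ones of GCLM and CAT, the dimmer measured one of GCLC and the one of CAT below 5. Levels are compared between samples for 1 probe set at a time, since the brightness of different probe sets cannot be compared.

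The arrays parted by replicate number. Of 13 annotated leukocyte markers 10 to 12 reached a log2 value of 5 in replicate 3 of the 3 groups, against 0 to 2 in replicates 1 and 2. The log2 of their summed level was 12.12 with DMIOA plus retinoic acid, 12.74 with DMIOA and 13.51 in control in replicate 3, and 6.73 to 7.24 in the other 6 arrays. The macrophage receptor gene CSF1R was at 8.95 to 9.60 in replicate 3 and below 5 elsewhere, and CSF3R, a granulocyte receptor gene, was below 5 throughout. Over the 12329 probe sets tested, replicates 1 and 2 with retinoic acid were the closest pair of a group (r = 0.997, with 250 identical values), against 0.963 for DMIOA and 0.995 for control. In bulk RNA fewer cells of a type and less RNA per cell cannot be told apart. Same-numbered samples deviated together, and samples numbered 1 and 2 also did so across numbers. Values are therefore also given with the replicate number as a block in the fit (the replicate block).

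Some markers of other cell types also differed in level between the groups. Of 10 fibroblast and preadipocyte markers 9 were at 5 or above on all 9 arrays and PDGFRA below 5 on all; the collagen genes COL1A1, COL1A2 and COL3A1 stayed between 13.76 and 14.32. PDGFRB was at 7.43 to 8.16, 8.23 to 8.82 and 8.51 to 9.07 with DMIOA plus retinoic acid, DMIOA and control. LUM was at 11.21 to 11.61 with DMIOA plus retinoic acid, 10.88 to 12.62 with DMIOA and 12.60 to 13.28 in control. VIM was at 14.04 to 14.13, 14.34 to 14.46 and 14.39 to 14.46 in the same order of groups. With DMIOA plus retinoic acid DCN, THY1, FBN1 and the collagen genes overlapped the control range. Of 8 adipocyte markers PPARG, FABP4 and PLIN2 were at 5 or above on all 9 arrays, and CEBPA, PLIN1 and ADIPOQ below 5 on all. FABP4 was at 6.41, 6.26 and 12.28 with DMIOA plus retinoic acid, 10.61, 12.94 and 12.96 with DMIOA and 10.39, 10.07 and 9.57 in control, and CIDEC at 6.50 to 7.28, 6.20 to 9.75 and 3.59 to 4.09 in the same groups. In that order of groups LPL was at 3.91 to 5.99, 4.70 to 7.50 and 6.63 to 8.18. PPARG was at 6.91 to 8.22, 8.05 to 9.63 and 7.11 to 10.41, and PLIN2 at 10.80 to 11.98, 11.43 to 12.08 and 9.74 to 10.81. The endothelial genes KDR, TEK and TIE1 and the muscle genes MYOD1, MYOG and DES were below 5 throughout. Of the other markers of those lists, 2 of each were below the control range with DMIOA plus retinoic acid, and CDH5 and TNNT3 overlapped it. With DMIOA plus retinoic acid, against control, PECAM1 was at 3.83 to 5.31 against 6.82 to 7.42, ERG at 8.02 to 8.92 against 10.16 to 10.37, ACTA1 at 10.69 to 11.09 against 11.76 to 12.56 and MYH1E at 3.42 to 4.24 against 7.02 to 9.03. The log2 of the summed level was 11.15 to 13.20 with DMIOA plus retinoic acid, 12.35 to 13.73 with DMIOA and 11.02 to 12.18 in control for the adipocyte list. It was 9.52 to 11.05, 10.30 to 11.52 and 10.55 to 11.70 in those groups for the endothelial list, and 10.78 to 11.13, 10.81 to 12.26 and 11.84 to 12.69 for the muscle list. For the fibroblast and preadipocyte list it was 16.198 to 16.465, 16.409 to 16.571 and 16.495 to 16.547, so the retinoic acid arrays lay below the control arrays. These are levels with no test, and their part in the results on the antioxidant genes was not tested.

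Cells given DMIOA plus retinoic acid had more GPX3, GCLC and SOD1 transcript and less GPX1 transcript than untreated control cells. These are 4 of the 13 member probe sets, 3 higher and 1 lower, called by limma at a Benjamini-Hochberg adjusted p under 0.05, where 13.2% of all 12329 probe sets were called. With the replicate block 7 were called, 5 higher and 2 lower, against 28.8% of all, and 4 to 6 when 1 array was then left out. One of the 7 is GSTA3, which was below 5 in 2 of the 3 replicates of every group, so its call is not read as a change. GSTA3 is also counted in each of the 6 blocked fits with 1 array left out. The median log2 difference of the 13, with GSTA3 among them, was 0.23, against 0.08 over all probe sets. Without GSTA3 the median would lie between -0.10 (the dimmer CAT probe set) and 0.23 (SOD2). Adding retinoic acid to DMIOA raised 1 of the 13, GPX3, where 3.89% of all were called. With the block GPX3, GCLC and SOD1 were called higher, and GSTA3 with the same reservation, 4 in all against 10.8% of all probe sets. That count was 1 to 3 when 1 array was then left out. In those 6 fits GSTA3 was called 6 times, GPX3 2 times, GPX4 1 time, as lower, and GCLC and SOD1 0 times. The median difference of the 13 was 0.19 against 0.04 over all. Without GSTA3 this median would lie between -0.03 (the second GCLM probe set) and 0.19 (SOD2). DMIOA alone against control changed 0 of the 13 by limma with or without the block, where 0.146% of all probe sets were called (1.29% with the block). Without the block 3 of the 13 had an unadjusted limma p under 0.05, as had 1429 of all 12329 probe sets. The comparisons share samples: the DMIOA arrays enter 2 of them, and so do those of the other groups.

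**Figure D1:**
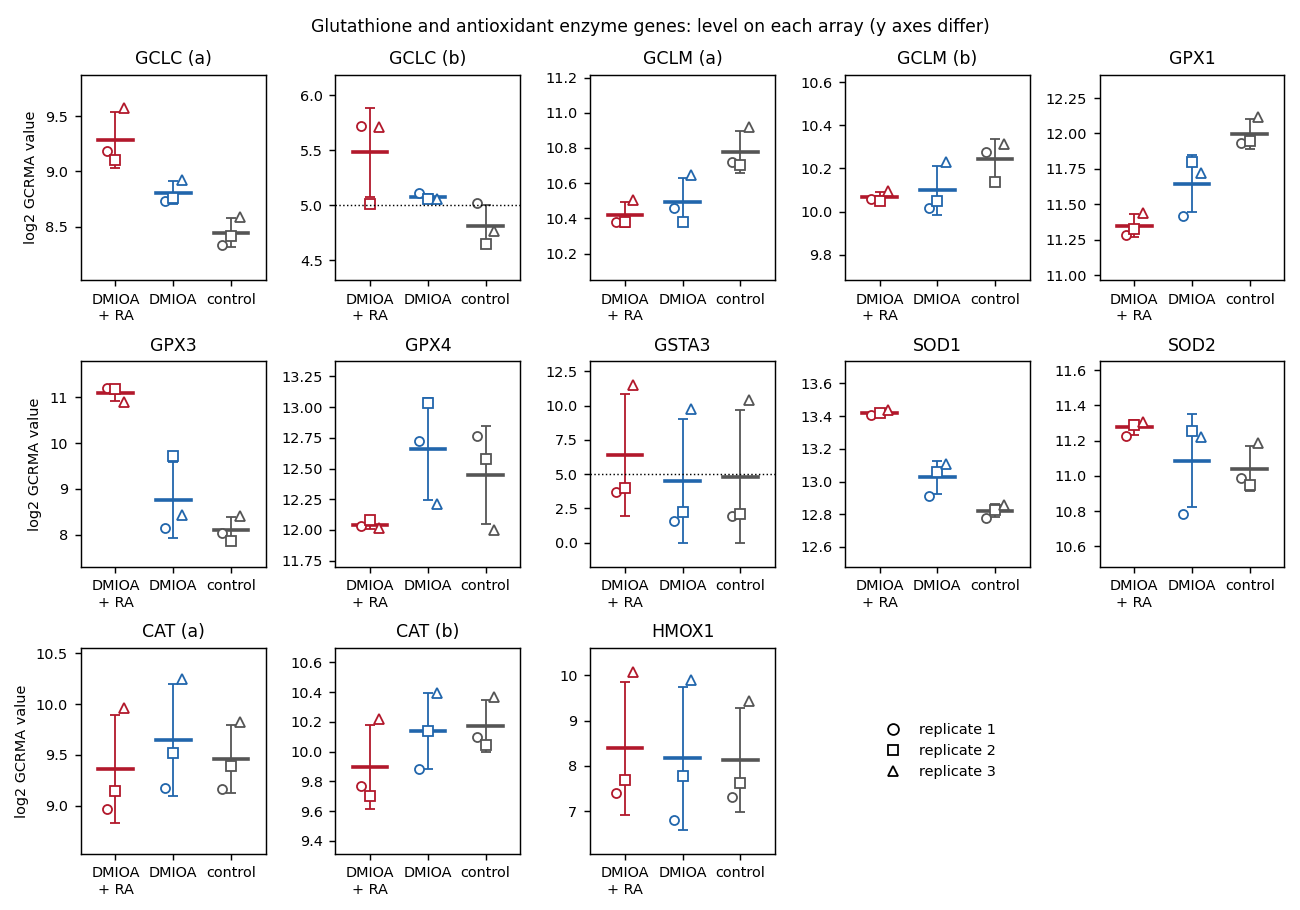
Log2 GCRMA value (y axis, its range differs by panel) of the 13 member probe sets that passed the filter, in DMIOA plus retinoic acid (RA), DMIOA and control; open symbols are arrays by replicate number, bars are means and whiskers the SD of 3 arrays; (a) and (b) are the 2 probe sets of 1 gene and the dotted line is a log2 value of 5. GPX3 lies between 10.90 and 11.21 with retinoic acid and at no more than 9.71 elsewhere, while GSTA3 and HMOX1 are high in replicate 3 of every group.

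GPX3 encodes the secreted glutathione peroxidase, which is found in plasma. Its log2 values (gene ID 427638) in replicates 1, 2 and 3 were 11.21, 11.18 and 10.90 with DMIOA plus retinoic acid, 8.15, 9.71 and 8.42 with DMIOA, and 8.03, 7.86 and 8.41 in control. The 3 retinoic acid arrays lay above all 6 others, and the DMIOA group was spread mainly by its replicate 2. Against DMIOA the level was 5.05-fold higher with retinoic acid, a log2 difference of 2.34 ± 0.38 (SE; limma adjusted p = 0.0158). By replicate number the difference was 3.06, 1.47 and 2.48, with that of replicate 3, the array group rich in leukocyte markers, between the other two. The call was lost without retinoic acid replicate 1 or 2 (limma adjusted p = 0.0793 and 0.0778) and over the 6 arrays of these groups alone (0.0617). With the replicate block it was called (0.0147), though not when DMIOA replicate 1 or 3 or retinoic acid replicate 1 or 2 was then left out (up to 0.0727). Against control the difference was 3.00 ± 0.38, or 8.01-fold (limma adjusted p = 0.00310), and it was called in each of the 21 alternatives, with adjusted p up to 0.0225. DMIOA alone differed from control by 0.67, with a 95% interval from -0.21 to 1.54 (limma adjusted p = 0.555).

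GPX1, the cytosolic peroxidase, went the other way. Its probe set (gene ID 100857115) had 11.28, 11.32 and 11.44 with DMIOA plus retinoic acid, 11.42, 11.80 and 11.72 with DMIOA, and 11.93, 11.94 and 12.12 in control. All arrays of either treated group lay below all control arrays, and DMIOA replicate 1 lay within the range of the retinoic acid arrays. With DMIOA plus retinoic acid GPX1 was lower than control by a log2 difference of -0.65 ± 0.13 (SE; limma adjusted p = 0.0197), which was -0.65, -0.62 and -0.67 by replicate number. That call was lost without control replicate 1 or 2 or without retinoic acid replicate 1 or 2 (limma adjusted p up to 0.0849). With the replicate block it was called (0.00832), and lost only without control replicate 1 (0.0508). The steps on either side of DMIOA were smaller and not called: -0.30 for retinoic acid added to DMIOA (interval -0.61 to 0.01) and -0.35 for DMIOA against control (interval -0.66 to -0.04, limma adjusted p = 0.365).

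GPX4 encodes the peroxidase that repairs lipid peroxides in membranes. Its values (gene ID 374056) were 12.03, 12.08 and 12.02 with DMIOA plus retinoic acid, 12.72, 13.03 and 12.21 with DMIOA, and 12.77, 12.58 and 12.00 in control. The 3 retinoic acid arrays lay below all DMIOA arrays, and replicate 3 was the lowest array of each group. Over all arrays the difference between DMIOA plus retinoic acid and DMIOA was -0.61 ± 0.25 (limma adjusted p = 0.282, or 0.0837 with the replicate block). With the block and 1 array left out it was called only without retinoic acid replicate 3 (limma adjusted p up to 0.290). Against control it was -0.41 over all arrays (limma adjusted p = 0.324, or 0.132 with the block). That difference was called in 1 of 6 blocked fits with 1 array left out. Over replicates 1 and 2 alone the difference from DMIOA was -0.82 and was called (limma adjusted p = 0.0281). The difference from control of -0.62 was also called there (limma adjusted p = 0.0340). Those fits hold 2 arrays a group, and the pair with retinoic acid was nearly identical (r = 0.997). They called more of all probe sets than the fit over all arrays, as given below. In replicate 3 the differences were -0.19 and 0.02. The leukocyte markers move with the same split of the arrays, and their part in it was not tested.

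**Figure D2:**
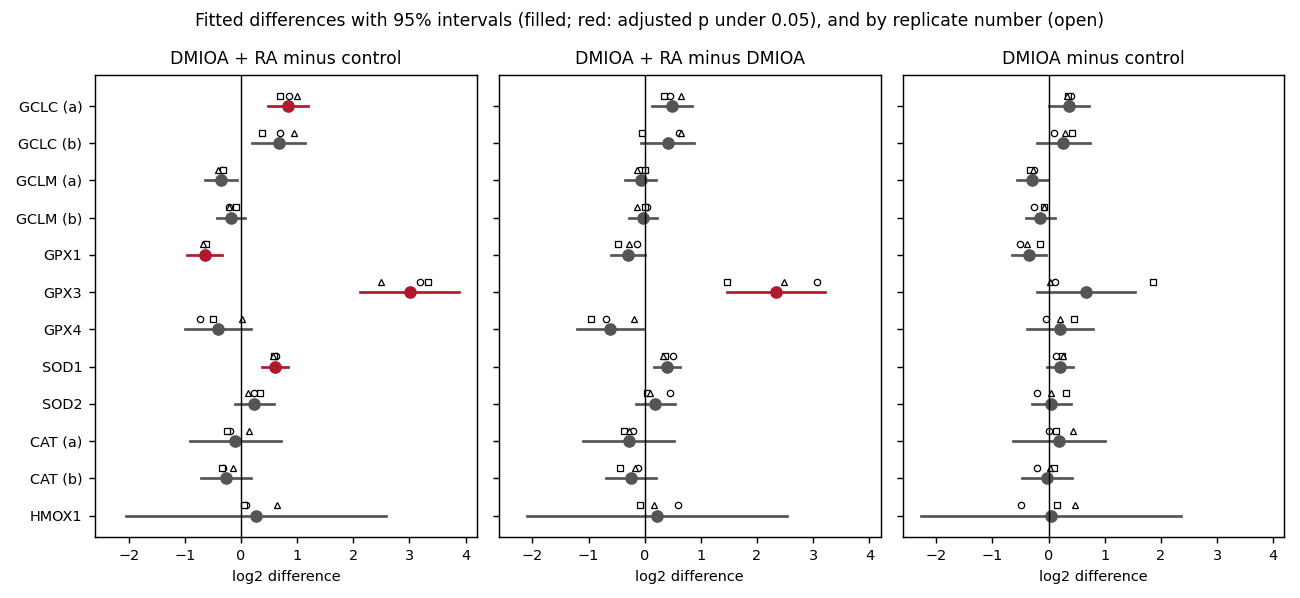
Log2 difference (x axis) of 12 member probe sets in the 3 comparisons; filled points and lines are the limma estimate and its 95% interval, red where the adjusted p is under 0.05, and open symbols are the differences within replicates 1 (circle), 2 (square) and 3 (triangle). GSTA3 is left out for its wide interval (-5.96 to 9.13 against control), while GPX3 stands at 3.00 and 2.34 in the comparisons with retinoic acid, GCLC at 0.84 and SOD1 at 0.60 against control, and the interval of HMOX1 spans over 2 units on either side of 0.

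Of the partner subunits of glutamate-cysteine ligase, GCLC was called higher than in control and GCLM was not called in the fit with group means. The brighter GCLM probe set was called lower than in control in 2 of 21 alternatives, among them the replicate block. The brighter GCLC probe set (gene ID 421894) had 9.18, 9.11 and 9.58 with DMIOA plus retinoic acid, 8.74, 8.76 and 8.93 with DMIOA, and 8.34, 8.42 and 8.59 in control. The 3 groups did not overlap, in the order retinoic acid, DMIOA, control. It was 1.79-fold higher with DMIOA plus retinoic acid than in control, a log2 difference of 0.84 ± 0.15 (SE; limma adjusted p = 0.0126), with 0.85, 0.69 and 0.99 by replicate number. This call was lost without control replicate 1 or 2 (limma adjusted p = 0.0561 and 0.0580). Retinoic acid added to DMIOA gave 0.48 ± 0.15, called with the replicate block (limma adjusted p = 0.0342) and not without it (0.153), nor with the block and any 1 of the 6 arrays left out (up to 0.136). DMIOA against control gave 0.36, with an interval from 0.01 to 0.71 (limma adjusted p = 0.426).

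The dimmer GCLC probe set, close to the background level, had 5.72, 5.01 and 5.71 with DMIOA plus retinoic acid, 5.11, 5.06 and 5.06 with DMIOA, and 5.02, 4.65 and 4.77 in control, the last 2 below 5. It was at least 1.39-fold higher with DMIOA plus retinoic acid than in control (limma adjusted p = 0.0685, blocked 0.0252). With the block and 1 array left out it was called only without retinoic acid replicate 2 (adjusted p up to 0.107). The direction was the same as for the brighter probe set, though the groups overlapped.

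The brighter GCLM probe set (gene ID 424492) had 10.38, 10.38 and 10.50 with DMIOA plus retinoic acid, 10.46, 10.38 and 10.64 with DMIOA, and 10.72, 10.70 and 10.92 in control. All treated arrays lay below the control arrays. With DMIOA plus retinoic acid it differed from control by -0.36 ± 0.12 (limma adjusted p = 0.0891), which was called lower with the replicate block (0.0274) but not with the block and any 1 of the 6 arrays left out (0.0654 to 0.111). The second GCLM probe set had 10.06, 10.05 and 10.10 with DMIOA plus retinoic acid, 10.01, 10.05 and 10.23 with DMIOA, and 10.28, 10.14 and 10.31 in control, with the DMIOA arrays overlapping both other groups. It differed between DMIOA plus retinoic acid and control by -0.17 ± 0.11 and was not called (limma adjusted p = 0.325, blocked 0.202). Between DMIOA plus retinoic acid and DMIOA the intervals were -0.35 to 0.21 and -0.28 to 0.22 for these probe sets.

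SOD1, the copper and zinc superoxide dismutase of the cytosol, was separated by group. Its values (gene ID 395938) were 13.41, 13.42 and 13.43 with DMIOA plus retinoic acid, 12.91, 13.06 and 13.11 with DMIOA, and 12.78, 12.83 and 12.86 in control, with no overlap between any pair of groups. It was 1.51-fold higher with DMIOA plus retinoic acid than in control, a log2 difference of 0.60 ± 0.10 (SE; limma adjusted p = 0.00930), and the difference was 0.63, 0.59 and 0.58 by replicate number. Without retinoic acid replicate 2 its adjusted p was 0.0512. Retinoic acid added to DMIOA gave 0.39 ± 0.10 (limma adjusted p = 0.0804), called with the replicate block (0.0414) and not with the block and any 1 of the 6 arrays left out (up to 0.191).

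SOD2, the manganese enzyme of mitochondria (gene ID 374042), had 11.23, 11.29 and 11.31 with DMIOA plus retinoic acid, 10.78, 11.26 and 11.22 with DMIOA, and 10.99, 10.95 and 11.18 in control. The retinoic acid arrays lay just above the control arrays and overlapped those of DMIOA. The difference from control was 0.23, with an interval from -0.11 to 0.58 (limma adjusted p = 0.337). Against DMIOA the interval was -0.16 to 0.54 (limma adjusted p = 0.621).

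CAT, which encodes catalase, showed no called difference in any comparison, with or without the replicate block. Of 21 alternatives 1 called its brighter probe set lower with DMIOA plus retinoic acid than in control (limma adjusted p = 0.00289). Its brighter probe set (gene ID 423600) had 9.77, 9.70 and 10.22 with DMIOA plus retinoic acid, 9.89, 10.14 and 10.39 with DMIOA, and 10.10, 10.04 and 10.37 in control. Replicate 3 was the highest array of each group, and the groups overlapped. The difference between DMIOA plus retinoic acid and control was -0.27, with an interval from -0.72 to 0.18 (limma adjusted p = 0.391, blocked 0.104). The other measured probe set had 8.96, 9.15 and 9.96 with DMIOA plus retinoic acid, 9.17, 9.52 and 10.25 with DMIOA, and 9.16, 9.39 and 9.82 in control. Replicate 3 was again the highest array of each group, and the difference between DMIOA plus retinoic acid and control was -0.10, with an interval from -0.92 to 0.72.

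HMOX1 parted by replicate number, and no difference between treatments was detectable. Its values (gene ID 396287) were 7.40, 7.69 and 10.07 with DMIOA plus retinoic acid, 6.82, 7.78 and 9.90 with DMIOA, and 7.31, 7.63 and 9.43 in control. In replicate 3 it was at 9.43 to 10.07, and in replicates 1 and 2 at 6.82 to 7.78. Macrophages are known to express this gene, and the leukocyte markers are high in the same 3 arrays; their part in its level was not tested. With DMIOA plus retinoic acid against control the difference was 0.26 with an interval from -2.05 to 2.58, and with the replicate block 0.26 ± 0.20 (SE; limma adjusted p = 0.350). Against DMIOA the differences by replicate number were 0.58, -0.09 and 0.17.

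GSTA3, an alpha-class glutathione transferase that joins glutathione to electrophiles, was above the background level in replicate 3 alone. Its values (gene ID 414896) were 3.69, 4.01 and 11.49 with DMIOA plus retinoic acid, 1.59, 2.21 and 9.73 with DMIOA, and 1.93, 2.11 and 10.40 in control, where every value of replicates 1 and 2 is below 5. It passed the filter through 1 array of each group. It was not called without the replicate block (limma adjusted p = 0.855 against DMIOA and 0.794 against control). The fit with the block did call it, but 2 of the 3 pairs behind that call compare values below 5. That call is therefore not read as a change, and no fold is given for it. Where the gene was above background, in replicate 3, it was higher with retinoic acid by 1.76 than with DMIOA and by 1.09 than in control, 1 array against 1. In those arrays the summed leukocyte markers were lowest with retinoic acid, and the part of these cells in the level of GSTA3 was not tested. In the RefSeq table of the chicken assembly GRCg7b, GSTA3 and its relative GSTA4 lie 8 and 7 protein-coding genes from GCLC on the same chromosome.

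**Figure D3:**
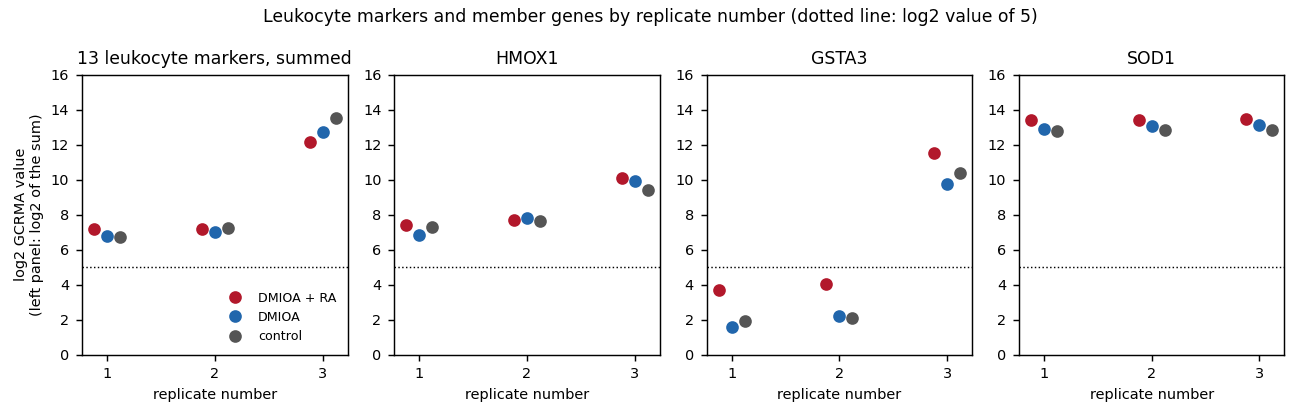
Level (y axis, log2) by replicate number (x axis) of the 13 leukocyte markers summed, HMOX1, GSTA3 and SOD1; each point is 1 array, coloured by group, and the dotted line is a log2 value of 5. The markers, HMOX1 and GSTA3 are high in replicate 3 of all 3 groups, at 12.12 to 13.51, 9.43 to 10.07 and 9.73 to 11.49, while SOD1 runs from 12.78 to 13.43 across the 9 arrays.

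Other genes of the same pathways were counted from 6 lists of 97 genes, of which 65 were measured, 1 probe set a gene. With DMIOA plus retinoic acid 9 of the 65 were higher and 5 lower than in control by limma, where 12.9% of the 6945 measured genes were called, and 15 were higher and 9 lower with the replicate block (28.3% of all genes). Against DMIOA 1 was higher and 3 were lower (3.73% of all genes), or 5 and 5 with the block (10.5%). DMIOA against control changed 0 (0.144% of all genes called), or 1 with the block (1.28%). The median log2 differences of the 65 were 0.12, 0.04 and 0.06 in these comparisons, against 0.09, 0.06 and 0.03 over all genes. The members and lists were chosen with earlier results of these data known, so such medians and counts are no test of a list.

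The glutathione transferases had a median log2 difference of 0.61 from control, against 0.09 over all genes. This list too was chosen with earlier results of these data known, and the family was not tested as a set. Of 9 measured, 4 were higher with DMIOA plus retinoic acid than in control and 0 lower by limma (6 and 1 with the block). Of all genes 12.9% were called (28.3% with the block). The 1 called lower with the block was GSTT1, at -1.90 from control (limma adjusted p = 0.0215), and GSTT1L differed by -0.80 and was not called. GSTA2, an alpha-class relative of GSTA3, averaged 9.04 ± 0.27 with DMIOA plus retinoic acid and 7.56 ± 0.47 in control (SD, n = 3 arrays each; limma adjusted p = 0.0286). By replicate number this difference was 1.98, 1.82 and 0.63, and against DMIOA it was -0.03 in replicate 3. Its probe set too can bind related transcripts, so alpha-class genes may not be told apart. GSTZ1, which also works in tyrosine breakdown, differed by 0.61 (limma adjusted p = 0.0210), GSTK1 by 0.54 (0.0205) and the membrane-bound MGST1 by 0.66 (0.0391). When either of control replicates 1 and 2, or of retinoic acid replicates 1 and 2, was left out, each of these calls was lost, and that of MGST1 also without retinoic acid replicate 3 (limma adjusted p up to 0.134). HPGDS, a sigma-class transferase that makes prostaglandin D, was higher with DMIOA plus retinoic acid than with DMIOA, at 14.04 ± 0.14 and 13.14 ± 0.28 (SD, n = 3 arrays each; limma adjusted p = 0.0474). That call held only when DMIOA replicate 1 was the array left out.

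Of 6 measured regulators of the NRF2 pathway, BACH1 and NFE2L1 fell and 0 rose by limma with retinoic acid (2 and 1 with the block). Of all genes 3.73% were called against DMIOA and 12.9% against control (10.5% and 28.3% with the block). The gene that rose with the block was SQSTM1, by 0.70 against DMIOA (limma adjusted p = 0.033) and 0.94 against control (0.0070). BACH1, the repressor of HMOX1 in mammals, had 7.89, 7.80 and 7.75 with DMIOA plus retinoic acid, 8.62, 8.74 and 8.58 with DMIOA, and 9.03, 9.11 and 8.75 in control. The retinoic acid arrays lay below all others, also in replicate 3. The differences were -0.83 ± 0.13 from DMIOA (SE; limma adjusted p = 0.0122, lost without retinoic acid replicate 1 or 2, up to 0.0728) and -1.15 ± 0.13 from control (0.00205, called with any 1 array left out). NFE2L1, a relative of NRF2, averaged 11.03 ± 0.07 with DMIOA plus retinoic acid, 11.56 ± 0.04 with DMIOA and 11.84 ± 0.08 in control (SD, n = 3 arrays each; limma adjusted p = 0.0292 and 0.00302). Against DMIOA its call held only when retinoic acid replicate 3 was the array left out, and against control it held whichever array was left out. NFE2L2 itself was at 11.39 to 11.62 with DMIOA plus retinoic acid, 11.66 to 11.86 with DMIOA and 11.60 to 11.81 in control. The retinoic acid arrays lay below all DMIOA arrays, with a difference of -0.30 (interval -0.58 to -0.01, limma adjusted p = 0.281). NFE2L2 was not called in either comparison with retinoic acid.

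MSRA, MSRB1 and MSRB3 are methionine sulfoxide reductases, which repair oxidised methionine, and MSRB1 was not called (0.32 against control, limma adjusted p = 0.437). They belong to a list of 11 measured genes that also holds glutathione peroxidases, SOD3 and haem enzymes. With DMIOA plus retinoic acid 1 of the 11 was higher than in control, 1 lower and 9 not called by limma (12.9% of all genes called). With the block 2 were higher and 1 lower (28.3%). Against DMIOA it was 0 and 1 (3.73%), or 1 and 1 with the block (10.5%). GPX8 was called higher than in control with the block (0.54, limma adjusted p = 0.0363) and not without it (0.0668). The name of the MSRA probe set ends in _s_at, so it can bind related transcripts. MSRA had 7.03, 7.08 and 7.43 with DMIOA plus retinoic acid, 6.42, 6.54 and 6.96 with DMIOA, and 5.79, 5.79 and 6.10 in control. It was 2.44-fold higher with DMIOA plus retinoic acid than in control (limma adjusted p = 0.00507). With the replicate block it was also called higher with DMIOA than in control (limma adjusted p = 0.0365, without the block 0.199). That blocked call was lost without control replicate 1 or 2 or DMIOA replicate 2 or 3, where 0 of all probe sets were called. MSRB3 was lower by -1.10 ± 0.11 than in control (SE; limma adjusted p = 0.00114) and by -0.72 ± 0.11 than with DMIOA (0.0111, lost if retinoic acid replicate 1 or 2 was left out, up to 0.0694). The calls of MSRA and MSRB3 with DMIOA plus retinoic acid against control, made without the block, held whichever array was left out.

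Glutathione synthetase, encoded by GSS, which completes the pathway that GCLC begins, was higher with DMIOA plus retinoic acid than in control at 6.93 ± 0.16 against 6.38 ± 0.17 (SD, n = 3 arrays each; limma adjusted p = 0.0481). Of the 11 measured genes of glutathione supply and recycling it was the only one called without the block, where 12.9% of all genes were called (28.3% with the block). The same shares apply to the lists that follow. With the block CTH, which makes cysteine from cystathionine, and CHAC1, which degrades glutathione, were called lower than in control (-0.89 and -1.45, limma adjusted p = 0.00775 and 0.00499). The call of GSS without the block held only without control replicate 3. Among 14 peroxiredoxin, thioredoxin and glutaredoxin genes, TXNRD3, a thioredoxin reductase, was higher by 0.87 (limma adjusted p = 0.0364) and the glutaredoxin gene GLRX lower by -1.41 (0.0313) than in control. Both calls were lost without control replicate 1 or 2 or retinoic acid replicate 1 or 2, and that of TXNRD3 without retinoic acid replicate 3. The TXNRD3 difference was 1.14, 1.19 and 0.28 by replicate number. With the block 3 genes of this list were called higher than in control and 1 lower. TXNRD2 (0.71, limma adjusted p = 0.0174) and PRDX1 (0.31, 0.0457) were called higher only with it. Of 14 selenoprotein and selenocysteine genes SELENOI, a phospholipid synthesis enzyme, was 2.47-fold higher (limma adjusted p = 0.00777), SELENOM of the endoplasmic reticulum lower by -0.64 (0.0160), and EEFSEC, the elongation factor that delivers selenocysteine, higher by 0.55 (0.0477). The SELENOI probe set is also of the _s_at kind and can bind related transcripts. The call of SELENOI held whichever array was left out, that of EEFSEC was lost whichever was left out, and that of SELENOM held only without control replicate 3 or retinoic acid replicate 3. With the block 2 genes of this list were called higher than in control and 2 lower, SELENON (-0.64, limma adjusted p = 0.0149) only with it. Between DMIOA and control the genes of smallest p after MSRA were MSRB3 (-0.38, limma adjusted p = 0.238) and SELENOI (0.67, 0.273).

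**Figure D4:**
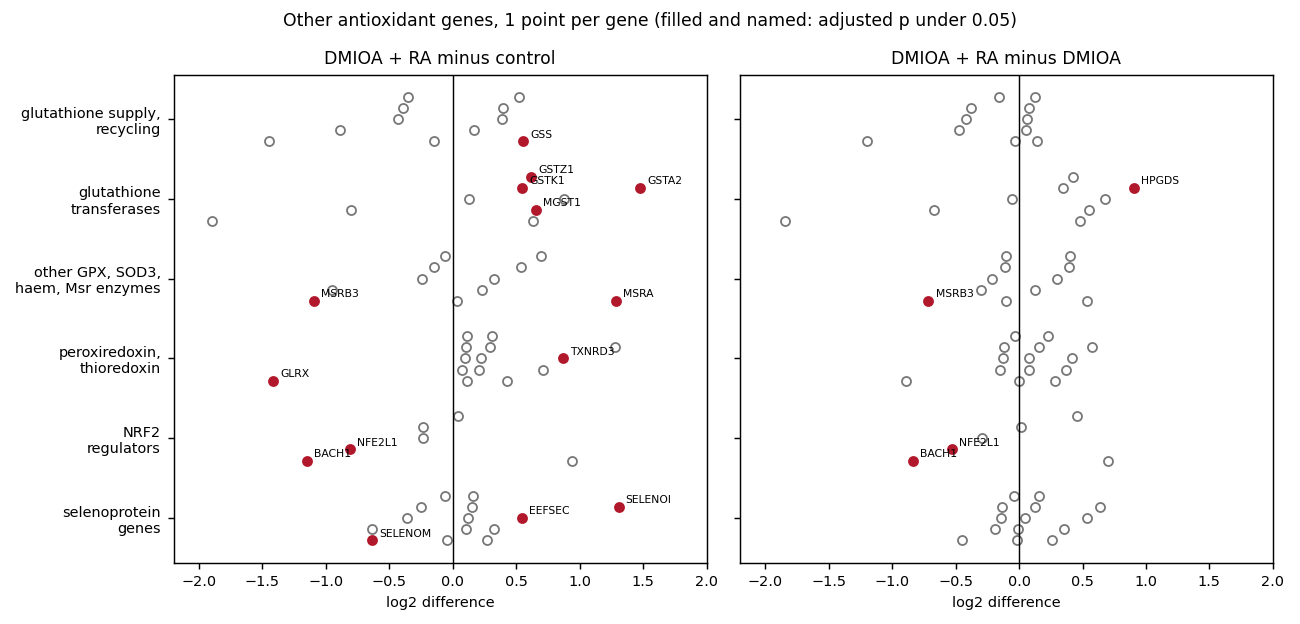
Log2 difference (x axis) of 65 other antioxidant genes, 1 point per gene, by list (rows; vertical spread within a row only separates the points), with retinoic acid against control (left) and against DMIOA (right); filled red points with names have a limma adjusted p under 0.05. The filled transferases lie to the right of 0 in both panels, and BACH1 and NFE2L1 lie to the left at -1.15 and -0.81 against control and -0.83 and -0.53 against DMIOA.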

How the data were processed

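Biotin-labelled RNA of the 9 samples was read on 1-colour chicken arrays made by Affymetrix. The values deposited by the authors are on a log2 scale, 1 per probe set; per the submitters' processing notes GCRMA made them, with a version not given in the sources used here. That method removes background using probe sequence, makes arrays comparable and combines probes, and it can compress low values. The scale follows from their range, 0.362 to 15.0. Scanner files were not used here, so the number of arrays limits the precision. The 12329 of 37693 chicken probe sets that reached 5 on 3 or more arrays entered a fit of all 9 arrays, with group means, in limma 3.58.1 (R 4.3.3), with Benjamini-Hochberg adjustment over all of them. The probe set with the highest mean stood for a gene of the wider lists. A fold is "at least" where an array of the dimmer group lies below 5, with 5 in its place.

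Over 9 same-numbered pairs from different groups the deviations correlated at 0.375 to 0.857. Samples numbered 1 and 2 in different groups also correlated across numbers, at 0.321 to 0.668. Replicate 3 of a group deviated the other way from samples numbered 1 and 2 in the other groups, at -0.80 to -0.38. The numbers thus set replicate 3 apart, and do not show that replicates 1 and 2 are paired. Every member probe set was named; of the wider lists, all genes called without the block, or the 3 of smallest p where fewer than 3 were called. The members and lists were chosen with earlier results of these data known. The fit was tested on simulated data with independent noise on each array. Such data do not hold the correlation between samples described above, so they do not show its effect on the calls. Alternatives covered the filter, normalization, variance prior, array weights, arrays entered, the block and leaving out each array. Symbols came from the platform annotation: 27178 probe sets had 1, 177 several and 11180 none, and 26863 gene IDs were matched in the RefSeq table, which changed 0 symbols. No sequences are printed, as no sequence table was used here.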

Additional observations from a re-analysis of the deposited data

How the results depend on the processing

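Calls depended on how the arrays were weighted and paired. Member probe sets called with DMIOA plus retinoic acid against control numbered 4, 7 with the replicate block, 9 with array weights and 2 to 4 with 1 array left out; with the block and 1 array left out they numbered 4 to 6, the lowest without control replicate 1. Against DMIOA the count was 1, with 4 under the replicate block, 2 with array weights, 2 with an intensity trend and robust prior, 3 over replicates 1 and 2 alone, 0 over the 6 arrays of these groups and 0 to 1 with 1 array left out. The 3 over replicates 1 and 2 alone were GPX3, GPX4, which was lower, and GSTA3, whose values there all lie below 5. With the block and 1 array left out the count against DMIOA also varied. With the block it was 2 without DMIOA replicate 2, 3 without retinoic acid replicate 3 and 1, GSTA3, without each of the other 4 arrays. Each of these counts holds GSTA3, and the 3 include GPX4, called lower. For DMIOA against control it was 0 in every alternative run. Over all probe sets, DMIOA plus retinoic acid against control gave 1623 calls, 3546 with the block, 8317 with array weights, 3620 over replicates 1 and 2 alone and 546 to 1997 with 1 array left out. The blocked count was 3101 without control replicate 3 and 3477 without retinoic acid replicate 3. Against DMIOA there were 479 calls, 1336 with the block, 1232 with array weights, 1517 over replicates 1 and 2 alone, 216 over 6 arrays and 146 to 602 with 1 array left out. The blocked count was 1054 without DMIOA replicate 2 and 1560 without retinoic acid replicate 3. DMIOA against control gave 18 calls (1429 at an unadjusted p under 0.05), 159 with the block, 269 with array weights, 11 with the trend and robust prior, 172 over replicates 1 and 2 alone, 0 over 6 arrays and 0 to 39 with 1 array left out. The blocked count was 52 without control replicate 3, 92 without DMIOA replicate 1, and 0 without control replicate 1 or 2 or DMIOA replicate 2 or 3. Of the wider lists the block called 24 genes against 14, 10 against 4 and 1 against 0. Stricter or no filtering, centring and cyclic loess moved none of the counts over all probe sets or over members by more than 1.5 times.

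Among 816 single-member alternatives 726 kept direction and call, 33 gained a call, 15 lost one and 42 changed sign, 0 of these called in either setting. The gained calls include those of GSTA3 with DMIOA plus retinoic acid, 8 against control and 8 against DMIOA, which are not read as a change. For DMIOA against control, array weights gave 1.82 for GSTA3 and 0.073 for the brighter CAT probe set, and replicates 1 and 2 alone gave -0.17 for HMOX1. The blocked fits with 1 array left out gave -0.047 and -0.059 for SOD2, 0.028 and 0.047 for CAT, and -0.16, -0.065 and -0.079 for HMOX1. Without the block, leaving out 1 array gave -0.018 to 0.43 for GPX4, -2.91 to 2.49 for GSTA3, -0.039 to 0.20 for SOD2, -0.11 to 0.43 and -0.16 to 0.097 for the CAT probe sets, and -0.83 to 0.71 for HMOX1. For DMIOA plus retinoic acid against DMIOA, array weights gave -0.088 for GSTA3 and -0.47 for HMOX1. For the second GCLM probe set replicates 1 and 2 alone gave 0.022, and blocked fits with 1 array left out gave 0.011 and 0.0063. Such a blocked fit gave -0.0020 for HMOX1. Leaving out 1 array gave -0.13 to 0.0036 and -0.072 to 0.035 for the GCLM probe sets, -0.66 to 4.50 for GSTA3, -0.59 to 0.013 for the dimmer CAT probe set and -0.62 to 1.09 for HMOX1. Against control, array weights gave -0.020 for HMOX1, and leaving out 1 array gave -0.96 to 4.38 for GSTA3, -0.40 to 0.098 for CAT and -0.58 to 0.91 for HMOX1. Where an alternative ended a call, the cause was not tested. With 3 arrays a group, differences of low genes near a log2 value of 5 and those spread by replicate 3 are the least precise.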

Other observations

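Among the wider antioxidant genes, the selenium carrier gene SELENOP1 and the secreted superoxide dismutase gene SOD3 also parted by replicate number. These genes were chosen after their values were seen. SELENOP1, whose probe set can bind related transcripts, was at 12.49, 12.14 and 12.59 in replicate 3 with DMIOA plus retinoic acid, DMIOA and control. In the other 6 arrays it was between 8.09 and 9.42. SOD3 was at 10.30, 10.14 and 10.43 in those replicate 3 arrays, but DMIOA replicate 2 was nearly as high, at 9.88, and the other arrays ran from 5.89 to 7.82. CHAC1, which degrades glutathione in the cytosol, was low in replicate 3, at 7.07, 8.81 and 8.78 in the same order of groups, against 10.60 to 11.97 elsewhere. With the replicate block CHAC1 was lower with DMIOA plus retinoic acid than with DMIOA (limma adjusted p = 0.0171) and than in control (0.00499), against 0.741 and 0.504 without it.

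GSTT1, a theta-class transferase, was lower with retinoic acid in each replicate number. It had 7.21, 7.28 and 9.74 with DMIOA plus retinoic acid, 9.07, 9.86 and 10.83 with DMIOA, and 9.97, 9.66 and 10.29 in control. With the block it was called lower with DMIOA plus retinoic acid than with DMIOA (limma adjusted p = 0.0437) and than in control (0.0215), against 0.241 and 0.119 without it. GSTT1L, of the same list, was at 10.53, 10.60 and 12.57 with DMIOA plus retinoic acid, 11.07, 12.12 and 12.53 with DMIOA, and 12.06, 12.01 and 12.04 in control. Over replicates 1 and 2 alone, 2 arrays a group, GSTT1L was called lower with DMIOA plus retinoic acid than in control (limma adjusted p = 0.0331). Over all arrays it was not (0.394), and in replicate 3 it was higher by 0.53.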
